A study of Mus musculus with 10 samples.

Results

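Angiopoietins are secreted ligands of Tie2, a receptor tyrosine kinase of endothelial cells that is encoded by Tek. Angiopoietin 1 is known as a Tie2 agonist made mainly by cells around vessels, whereas angiopoietin 2 is made by endothelial cells, stored in Weibel-Palade bodies and acts as an agonist or an antagonist depending on context. Tie1 is a related receptor that modulates Tie2, the phosphatase VE-PTP (Ptprb) removes phosphate from Tie2, and the matrix protein Svep1 is a ligand of Tie1. The pathway is known for its part in vessel stability and in the development of lymphatic vessels.

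The 7 genes of this pathway (Angpt1, Angpt2, Angpt4, Tek, Tie1, Ptprb and Svep1) were chosen by name from the 55401 genes of a count table, and 6 of them passed the filter on low counts that left 14815 genes for testing. Angpt4 did not pass. RNA was sequenced from meningeal cells sorted as CD45-CD31+podoplanin+, the gate for lymphatic endothelial cells (LECs), from female C57BL/6 mice 3 months old. The 5 naive replicates came from unstressed mice and the 5 SCVS replicates from mice after subchronic variable stress, which was 6 days of foot shock, tail suspension and restraint in rotation. Each replicate pooled the cells of 3 to 4 mice, all tissue was digested with actinomycin D, and the RNA was amplified before sequencing. Groups are named by condition and replicate number, such as Naive 5. Levels are given as CPM, a gene's counts per 1000000 of the replicate's total count. The totals lay between 9984743 and 14094155. A count of 3, the floor used here, was worth 0.213 to 0.300 CPM, and such floors describe counting error alone, since reads copied by amplification do not stand for separate molecules.

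Some replicates stood apart in the marker genes of the sorted cells. Naive 5 had 21.5 CPM of Pecam1, which encodes the sorted antigen CD31, against 536 to 1119 CPM in the other 9 replicates. Cdh5, encoding VE-cadherin, was at 3.00 CPM in Naive 5 and between 135 and 318 CPM elsewhere. Of the pan-endothelial list, 5 of 6 genes were lowest in Naive 5, and its summed level there was 733 CPM against at least 6179 CPM in the other naive replicates and 3488 to 7425 CPM in SCVS. Of the blood endothelial list, 7 of 8 genes were lowest in Naive 5, and Aplnr shared its lowest value, 0, with other replicates. Prox1 and Pdpn, the defining lymphatic transcription factor gene and the gene of the sorted antigen podoplanin, were both at 0 CPM in Naive 1. In Naive 5 they were at 63.2 and 26.3 CPM, but Lyve1 was at 0.0750 CPM, Tbx1 at 0 and Reln at 0.825 CPM there. The summed level of the 9 lymphatic markers was 74.4 CPM in Naive 1, 196 CPM in Naive 5 and 471 to 3243 CPM in the other 8 replicates. SCVS 5 had 0.200 CPM of Prox1 and 19.8 CPM of Pdpn. The blood endothelial markers Flt1 (at least 666 CPM) and Plvap (at least 501 CPM) were high in every replicate but Naive 5, where they were at 125 and 166 CPM. In Naive 5, 5 of the 8 blood endothelial markers had 3 counts or fewer, and Sox17, Vwf and Aplnr had none. Levels, fold changes, ratios and marker scores are therefore compared with and without Naive 5. Fold changes and the lymphatic score are also given without Naive 1. Fewer cells of a type and less RNA per cell cannot be told apart in such bulk samples.

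**Figure D1:**
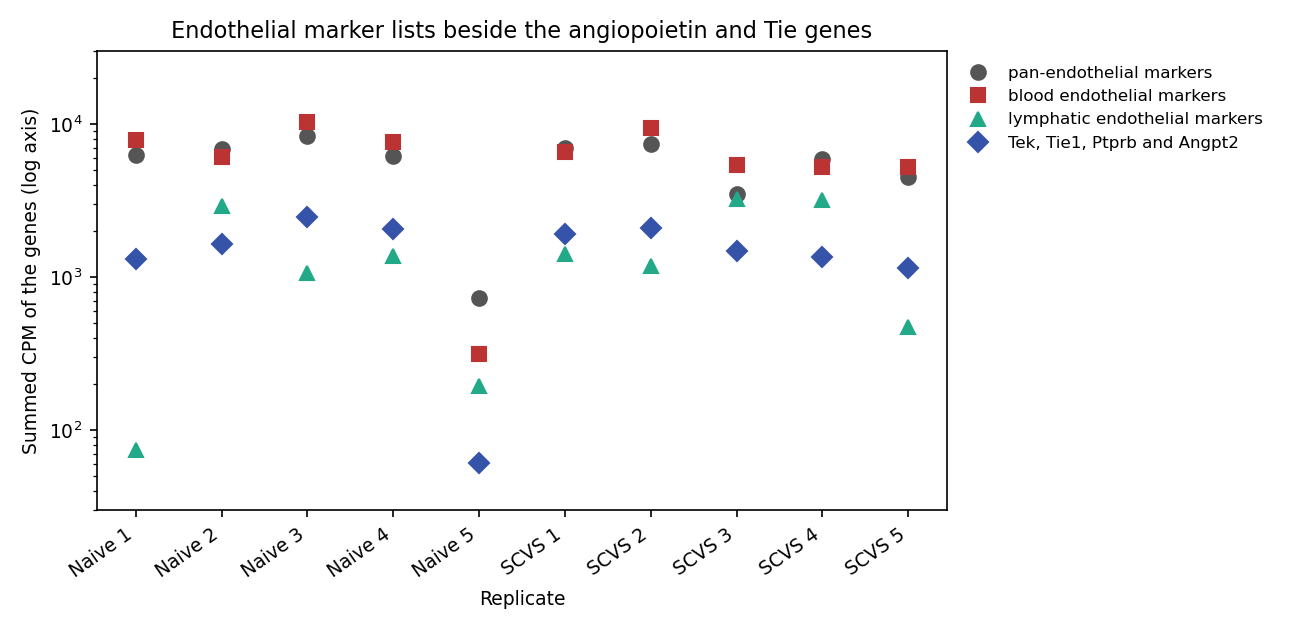
Summed CPM of the pan-endothelial, blood endothelial and lymphatic endothelial marker lists, and of Tek, Tie1, Ptprb and Angpt2, on a logarithmic axis. Each symbol is the sum in 1 of the 5 naive and 5 SCVS replicates. Naive 5 has the lowest blood endothelial (313 CPM), pan-endothelial (733 CPM) and 4-gene (61.5 CPM) sums, and Naive 1 the lowest lymphatic sum (74.4 CPM).

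Among the ligands, Angpt2 was the abundant gene and Angpt1 the variable one. Angpt2 (ENSMUSG00000031465, chromosome 8, 18690263 to 18741562 on the minus strand of GRCm38.p6) had 176, 307, 138, 237 and 0.225 CPM in Naive 1 to 5 and 74.1, 116, 210, 226 and 158 CPM in SCVS 1 to 5. The Naive 5 value rests on 3 counts, at the floor, whereas the other 9 replicates had at least 1045 counts. Angpt2 thus spanned overlapping ranges in the groups, at 172 ± 115 CPM in naive and 157 ± 63.4 CPM in SCVS replicates (SD, n = 5 each, two-sided exact permutation p = 0.802). Without Naive 5 the naive mean was 215 ± 73.9 CPM (SD, n = 4, exact permutation p = 0.246). The gene lies within Mcph1 on the opposite strand with no overlap of exons, and Mcph1 had at most 65 counts in naive and 281 in SCVS replicates.

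Angpt1 (ENSMUSG00000022309, chromosome 15, 42424667 to 42676977, minus strand) had 382, 569, 0, 27 and 0 counts in Naive 1 to 5 and 118, 25, 0, 0 and 34 counts in SCVS 1 to 5. In CPM these were 36.7, 44.6, 0, 1.99 and 0 in naive and 8.37, 2.05, 0, 0 and 3.41 in SCVS replicates. Both groups held replicates without a count, and Naive 1 and Naive 2 were the highest of all. The group means were 16.6 ± 22.1 and 2.77 ± 3.45 CPM (SD, n = 5 each, exact permutation p = 0.413), and without Naive 5 the naive mean was 20.8 ± 23.1 CPM (SD, n = 4, exact permutation p = 0.159). Such gaps were common in these libraries. Of all tested genes, 47% had no count in 1 replicate and at least 100 counts in another of the same group, and Angpt1 was among them.

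Markers of cells that surround vessels are set beside Angpt1. Acta2, a smooth muscle actin gene singled out here after its values were seen, was at 1525 CPM in Naive 1 and 506 CPM in Naive 2, against 1.59 to 84.7 CPM in the other 8 replicates. Pdgfrb, a defining pericyte gene, was at 125 CPM in Naive 1 but 5.32 CPM in Naive 2, and at 0 in 4 replicates. The summed level of the 7 mural markers was 765 to 7469 CPM in naive and 425 to 5914 CPM in SCVS replicates. The sum was mostly Rgs5, a pericyte gene at 324 to 5812 CPM, except in Naive 2, where Acta2 exceeded Rgs5 (427 CPM). The mural score, the mean of log2(CPM + 1) over the list, was highest in Naive 1 and Naive 2 (5.73 and 5.70), which had the most Angpt1. It was lowest in the 4 replicates without a count of Angpt1, at 2.41 in Naive 5, 2.99 in SCVS 4, 3.05 in Naive 3 and 3.20 in SCVS 3. The summed level did not follow Angpt1 in this way, though it was highest in Naive 1. It was 5078 CPM in Naive 5, of which Rgs5 made 5057 CPM, and 1188 CPM in Naive 2. The sums of 6 fibroblast markers ran from 50.9 to 1318 CPM in naive and from 18.5 to 1505 CPM in SCVS, and those of 4 platelet markers from 0.0750 to 327 CPM and from 95.1 to 531 CPM. The part of these cells in the Angpt1 values was not tested. In the GENCODE M1 annotation exons of Angpt1 also overlap those of an antisense model, Gm17473, over 283 bases, and use of strand in counting was not stated.

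Angpt4 (ENSMUSG00000027460, chromosome 2, 151911207 to 151945337, plus strand), a further Tie2 ligand, had 4 counts in Naive 3, 3 counts in SCVS 3 and none in the other 8 replicates. Only the Naive 3 value exceeded the floor, so a difference between the groups was not detectable at this depth.

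The receptor genes Tek and Tie1 were present in all 10 replicates. Tek (ENSMUSG00000006386, chromosome 4, 94739086 to 94874976, plus strand) had 312, 393, 951, 317 and 5.48 CPM in Naive 1 to 5 and 439, 624, 399, 178 and 326 CPM in SCVS 1 to 5. Naive replicates held both the highest value, in Naive 3, and the lowest, in Naive 5, and the SCVS range lay between them. The means were 396 ± 344 CPM in naive and 393 ± 163 CPM in SCVS replicates (SD, n = 5 each, exact permutation p = 0.984). Without Naive 5 the naive mean was 493 ± 307 CPM (SD, n = 4, exact permutation p = 0.643).

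Tie1 (ENSMUSG00000033191, chromosome 4, 118471191 to 118489849, minus strand) had 292, 169, 189, 401 and 5.48 CPM in Naive 1 to 5 and 241, 520, 143, 286 and 180 CPM in SCVS 1 to 5. Naive 5 was again the lowest, and the remaining naive replicates lay inside the SCVS range. The means were 211 ± 148 and 274 ± 148 CPM (SD, n = 5 each, exact permutation p = 0.532), and without Naive 5 the naive mean was 263 ± 107 CPM (SD, n = 4, exact permutation p = 0.929).

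RefSeq promoter windows of GRCm38.p6 were at hand for 4 of the 7 genes (Angpt4, Svep1, Tek and Tie1), and the windows of Tie1, present in every replicate, and Angpt4, nearly absent, are shown as a contrast in level. Each is the 250 bases before the annotated start, read 5′ to 3′ on the gene's strand, at chr4:118489850-118490099 (minus) for Tie1 and chr2:151910957-151911206 (plus) for Angpt4. Capitals mark GGAA or its reverse complement TTCC, the core that ETS transcription factors of endothelial cells bind.
Tie1: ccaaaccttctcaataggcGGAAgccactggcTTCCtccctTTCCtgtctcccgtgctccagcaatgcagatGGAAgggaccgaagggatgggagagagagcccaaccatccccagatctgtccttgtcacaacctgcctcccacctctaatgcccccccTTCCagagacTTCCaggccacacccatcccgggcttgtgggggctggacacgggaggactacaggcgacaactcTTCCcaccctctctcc
Angpt4: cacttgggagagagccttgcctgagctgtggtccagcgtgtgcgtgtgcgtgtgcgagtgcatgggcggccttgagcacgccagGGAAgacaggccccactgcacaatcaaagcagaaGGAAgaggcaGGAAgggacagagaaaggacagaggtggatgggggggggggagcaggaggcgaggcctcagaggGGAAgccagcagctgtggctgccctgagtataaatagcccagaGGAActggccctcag
The core occurred 7 times in the Tie1 window, 5 times in that of Angpt4 and 6 times in that of Svep1. The Tek window, with 2 copies, starts before but mostly lies inside the outer bounds of the gene given above, so it is not a window upstream of the whole gene. It occurred in 93.4% of 32851 windows of the same length, with a median of 3 copies, so its presence did not set these genes apart. GTAAACA, a forkhead factor motif searched on both strands, was in 3.17% of all windows and in 0 of these 4.

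Ptprb and Svep1 act on the receptors from inside the membrane and from the matrix. Ptprb (ENSMUSG00000020154, chromosome 10, 116275502 to 116389538, plus strand) had 531, 763, 1170, 1093 and 50.3 CPM in Naive 1 to 5 and 1144, 843, 731, 651 and 474 CPM in SCVS 1 to 5. The SCVS range lay inside the naive range. The means were 722 ± 455 and 769 ± 249 CPM (SD, n = 5 each, exact permutation p = 0.865), and 889 ± 297 CPM in the naive group without Naive 5 (SD, n = 4, exact permutation p = 0.500).

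Svep1 (ENSMUSG00000028369, chromosome 4, 58042796 to 58206596, minus strand) was detected in few replicates. It had 1, 0, 0, 7 and 0 counts in Naive 1 to 5 and 0, 19, 0, 0 and 34 counts in SCVS 1 to 5. Its exons overlap an antisense model, Gm17243, over 2244 bases. The CPM averaged 0.122 ± 0.224 in naive and 0.993 ± 1.51 in SCVS replicates (SD, n = 5 each, exact permutation p = 0.444). Without Naive 5 the difference was 0.840 CPM (exact permutation p = 0.444). The smallest p that 5 against 5 or 4 against 5 replicates can give is 0.00794.

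**Figure D2:**
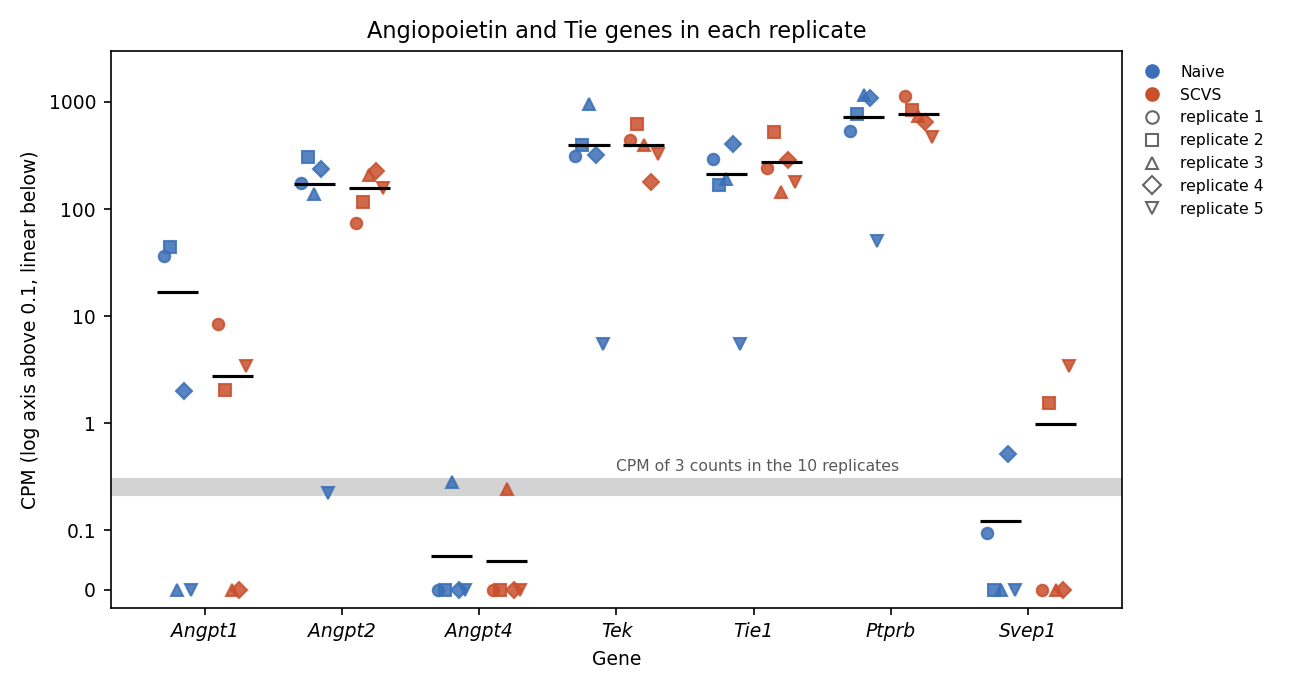
Level of the 7 genes in each replicate in CPM, on an axis that is logarithmic above 0.1 and linear below. Symbols are replicates, bars are group means and the grey band is the CPM of 3 counts (0.213 to 0.300); Naive 5 is the lowest replicate for Angpt2, Tek, Tie1 and Ptprb, and the groups overlap for every gene.

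Naive 5 was the lowest of the 10 replicates for Angpt2, Tek, Tie1 and Ptprb, as it was for 13.4% of all tested genes. In that share a tie, such as at 0, counted only for the first replicate in the order Naive 1 to SCVS 5. As a percentage of the mean of the other naive replicates, its level was 0.105 for Angpt2, 1.11 for Tek, 2.09 for Tie1 and 5.66 for Ptprb. The sum of the 4 genes was 61.5 CPM in Naive 5 and 1138 to 2448 CPM in the others. Naive 1, without Prox1 and Pdpn, did not share this shortfall.

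The comparison of SCVS with naive replicates asked whether stress alters these genes in the sorted cells. The quasi-likelihood test of edgeR, at a threshold of 0.1 on the adjusted p, called none of the 6 tested members and none of the other genes (0% of 14815). At an unadjusted p under 0.05 there were 0 of 6 members against 3.1% of all genes, and DESeq2 called 0 members against 0.769% of all genes. The groups did not overlap in CPM for 0 of 7 members and for 0.628% of tested genes.

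The log2 fold changes of SCVS over naive, with standard errors and 95% intervals, had adjusted p = 1.00 for all 6 members in the edgeR test. They were 0.048 ± 0.59 for Ptprb (-1.25 to 1.34), -0.081 ± 0.80 for Tek (-1.84 to 1.68), -0.14 ± 0.97 for Angpt2 (-2.26 to 1.98) and 0.30 ± 0.74 for Tie1 (-1.31 to 1.91). The sparse genes had wider intervals, at -2.65 ± 2.37 for Angpt1 (-7.83 to 2.53) and 2.89 ± 2.05 for Svep1 (-1.61 to 7.38). The intervals therefore left room for differences of several fold either way.

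Leaving out Naive 5 narrowed the intervals of the 4 abundant genes. The log2 fold change was then -0.46 ± 0.40 for Angpt2 (-1.34 to 0.42), -0.40 ± 0.42 for Tek (-1.33 to 0.54), -0.0056 ± 0.39 for Tie1 (-0.87 to 0.86) and -0.25 ± 0.30 for Ptprb (-0.92 to 0.41), so the sign turned for Tie1 and Ptprb. Single other replicates also turned signs. The value for Tek was 0.56 without Naive 3 and 0.099 without SCVS 4. For Angpt2 it was 0.16 without Naive 2 and 0.043 without SCVS 1, and for Ptprb it was -0.029 without Naive 1 and -0.13 without SCVS 1. Without Naive 1, the replicate that lacked Prox1 and Pdpn, the values of the others were -2.07 ± 2.53 for Angpt1, -0.11 ± 1.08 for Angpt2, -0.14 ± 0.90 for Tek, 0.48 ± 0.82 for Tie1 and 2.84 ± 2.31 for Svep1. The sign for Angpt1 (-2.96 ± 2.25 without Naive 5) did not depend on a single replicate. For Svep1 (2.60 ± 2.16 without Naive 5) this could not be checked, since it fell below the filter without Naive 4, SCVS 2 or SCVS 5. The replicates left out in its other fits had at most 1 count of it.

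**Figure D3:**
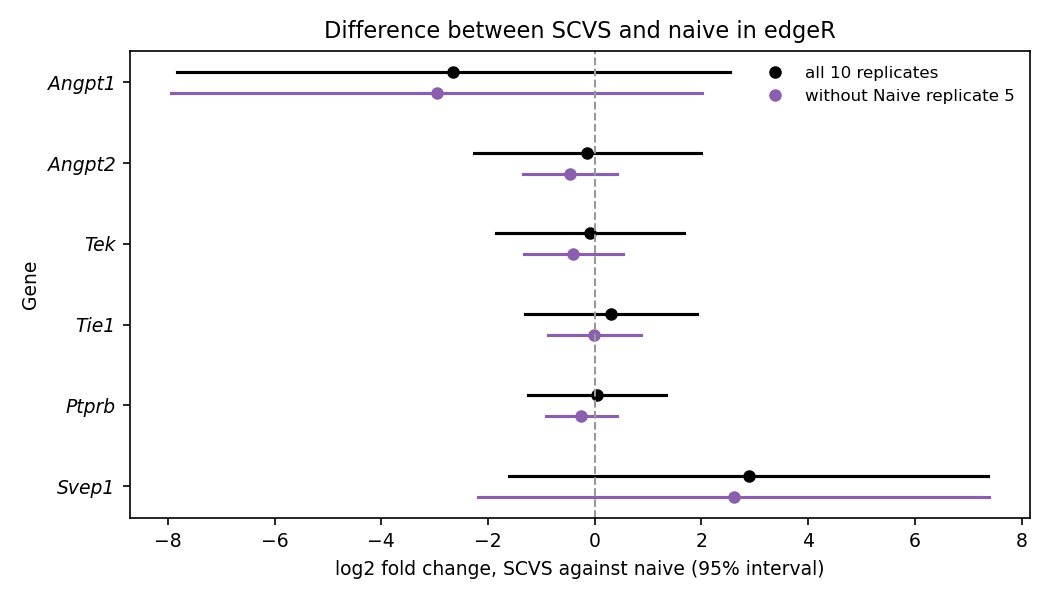
Log2 fold change of SCVS over naive replicates from edgeR for the 6 tested genes, with all 10 replicates and without Naive 5. Bars are 95% intervals, all of which cross 0; those of Angpt2, Tek, Tie1 and Ptprb are narrower without Naive 5.

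Ratios of 2 genes within a replicate do not depend on depth or scaling. Tie1 to Tek ran from 0.199 in Naive 3 to 1.60 in SCVS 4, and in Naive 5 it was 1.00, inside the range of the others. On the log2 scale it averaged -0.66 ± 1.10 in naive and -0.56 ± 0.82 in SCVS replicates (SD, n = 5 each, exact permutation p = 0.865). Without Naive 5 the difference of SCVS from naive was 0.27 (exact permutation p = 0.690). Naive 5 had as many counts of Tie1 as of Tek, both few.

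Ptprb to Tek was 9.19 in Naive 5 and 1.23 to 3.65 in the other 9 replicates. Its log2 means were 1.40 ± 1.14 and 1.02 ± 0.60 (SD, n = 5 each, exact permutation p = 0.563). The difference of -0.38 rested on Naive 5 and was 0.068 without it (exact permutation p = 0.865). Angpt2 to Tek, which left out Naive 5 at the count floor, was 0.565, 0.781, 0.145 and 0.748 in Naive 1 to 4 and 0.169, 0.185, 0.525, 1.27 and 0.486 in SCVS 1 to 5. Its log2 means were -1.10 ± 1.14 (SD, n = 4) and -1.32 ± 1.20 (SD, n = 5), with an exact permutation p of 0.778.

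The balance of the ligands could be formed in 3 replicates a group, where both had more than 3 counts. Angpt2 exceeded Angpt1 in all 6, by 4.81-, 6.89- and 119-fold in Naive 1, 2 and 4 and by 8.86-, 56.3- and 46.5-fold in SCVS 1, 2 and 5. The ratios spread within each group and overlapped between them, and with 3 a group they were not tested.

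**Figure D4:**
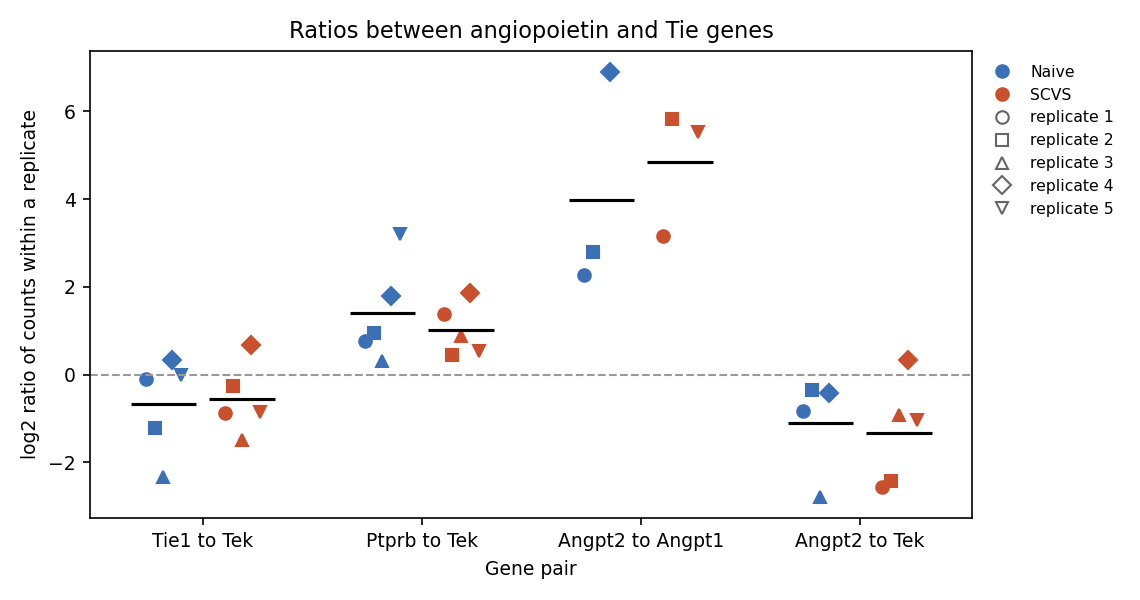
Within-replicate log2 ratios of counts for 4 gene pairs in naive and SCVS replicates with more than 3 counts on both genes. Symbols are replicates and bars are group means; the groups overlap in all 4 pairs and Ptprb to Tek is highest in Naive 5.

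Between genes, levels were compared as CPM per kilobase of exon, with lengths from the GENCODE M1 annotation. Over all 10 replicates the order was Tek (83.7 ± 53.9), Ptprb (56.4 ± 26.3), Tie1 (49.3 ± 29.1), Angpt2 (44.5 ± 23.9), Angpt1 (2.28 ± 3.90), Svep1 (0.0346 ± 0.0692) and Angpt4 (0.0227 ± 0.0480), each as the mean ± SD in CPM per kilobase. Angpt2 stood above Angpt1 in 10 of 10 replicates (exact sign-flip permutation p = 0.00195, adjusted over 6 neighbours 0.0117), in Naive 5 by 3 counts against 0. Tek stood above Ptprb in 7 of 10 (exact permutation p = 0.0371, adjusted 0.0742). Angpt1 stood above Svep1 in 6 of 10 (exact permutation p = 0.0313, adjusted 0.0742), and the rest had no count of either gene. Ptprb, Tie1 and Angpt2 were not separated beyond their spread, with adjusted exact permutation p of 0.647 and 0.719, nor were Svep1 and Angpt4 (adjusted 0.719).

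By mean CPM, without regard to length, Ptprb, Tek, Tie1 and Angpt2 lay at percentiles 99.3, 98.1, 96.1 and 93.1 of the tested genes, and Angpt1 at 32.1 and Svep1 at 1.54. The coefficient of variation in the SCVS group was set beside the median of genes of like level. It was near that median for Angpt2 (40.5% against 41.1%), Ptprb (32.4% against 32.1%) and Angpt1 (125% against 128%). It was higher for Tek (41.4% against 34.8%), Tie1 (54.0% against 36.5%) and Svep1 (152% against 120%).

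Across the 10 replicates, Angpt2, Tek, Tie1, Ptprb and the endothelial gene Pecam1 had high pooled Pearson correlations, all of which fell without Naive 5. Pearson's r of log2(CPM + 1) over the 10 relations computed ran from 0.880 to 0.963, with adjusted permutation p between 0.0269 and 0.0900. Spearman's rho ran from -0.176 to 0.770, and its smallest adjusted permutation p was 0.0739. Without the 2 replicates farthest from the median, r lay between -0.578 and 0.457, so the height of the pooled r rested on the replicates left out.

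Tek and Ptprb had r = 0.952 (permutation p = 0.00538, adjusted 0.0269) and rho = 0.770 (permutation p = 0.0122, adjusted 0.0739). Without Naive 5 their r was 0.556 and their rho 0.683, and without the 2 farthest replicates r was 0.373. Angpt2 and Tek had r = 0.880 (permutation p = 0.0900) and rho = -0.176 (permutation p = 0.632), and r = -0.459 without Naive 5. Ptprb and Pecam1 had r = 0.963 (permutation p = 0.00448, adjusted 0.0269), and 0.602 without Naive 5. Their rho was 0.758, and 0.667 without Naive 5. In the other relations rho without Naive 5 ran from -0.617 to 0.450.

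**Figure D5:**
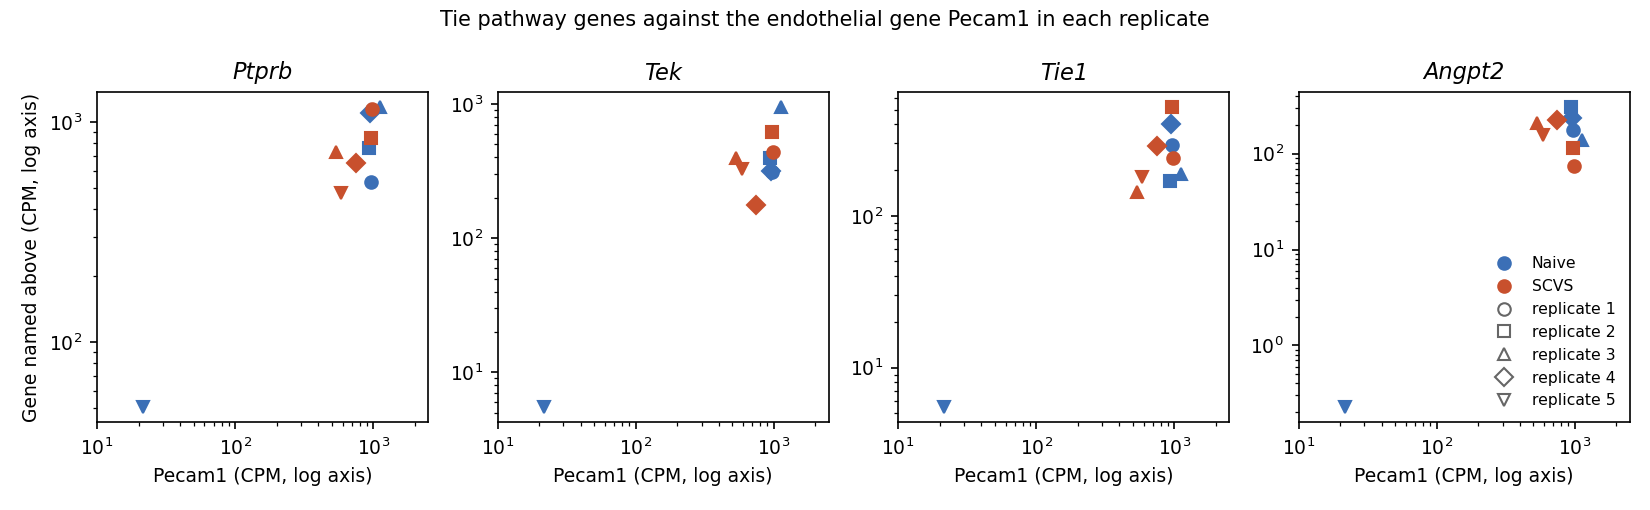
Level of Angpt2, Tek, Tie1 and Ptprb against that of Pecam1, the gene of the sorted antigen CD31, in the 10 replicates on logarithmic scales. Naive 5 lies alone at the low end of both axes in each panel. The other 9 replicates form a cloud in which Angpt2 has no upward trend (r of log2(CPM + 1) = -0.276 without Naive 5).

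The genes most like each member across the 10 replicates, by Pearson's r among the tested genes with a mean of at least 10 CPM, are a description that also rests in part on Naive 5. Tek was most like Ramp2, Adgrf5 and Emcn (r = 0.989, 0.982 and 0.980, and 0.891, 0.847 and 0.813 without Naive 5). Ramp2 and Adgrf5 encode a receptor-modifying protein and an adhesion receptor of endothelium, and Emcn the endothelial sialomucin endomucin. Ptprb was most like Adgrl4, Ctla2a and Srgn (0.983, 0.981 and 0.978), and Tie1 like H2-Q7, H2-D1 and Igfbp3 (each 0.978).

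Angpt2 was most like Nudt5, Cav1, the gene of caveolin 1, and Alg1 (0.975, 0.974 and 0.971), and these were 0.614, 0.579 and 0.789 without Naive 5. Angpt1 was most like Micall1, Nim1k and Kcnq1 (0.893, 0.873 and 0.864), with little dependence on Naive 5 (0.908, 0.868 and 0.848). Over all 10 replicates no gene of 9975 had r over 0.9 with Angpt1. Of 9974 genes, 117 did with Angpt2, 155 with Tie1, 169 with Tek and 182 with Ptprb. These counts were not made without Naive 5. Among the genes listed, r without Naive 5 was 0.908 for Micall1 with Angpt1 and at most 0.891 with the other members.

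Other genes of the pathway were read from the same fit. Of 25 adaptors and kinases of Tie signalling, 24 were tested and 0 were called, with 14 positive and 10 negative log2 fold changes and a median of 0.05 against -0.03 over all tested genes. Pdpk1, the kinase that activates Akt, had the smallest p among the negative ones. It was at 82.8 ± 40.5 CPM in naive and 27.0 ± 15.7 CPM in SCVS replicates (SD, n = 5 each). Its log2 fold change was -1.67 ± 0.58 with an edgeR adjusted p of 0.964. Grb2, an adaptor, was at 10.4 ± 5.38 and 34.6 ± 21.3 CPM, a log2 fold change of 1.69 ± 1.12.

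Foxo1 is restrained by Tie2 signalling through Akt, and 11 of 11 FOXO factors and target genes were tested with 0 called. Their log2 fold changes were positive for 7 and negative for 4, with a median of 0.54. Cited2, a transcriptional coregulator, was at 26.7 ± 25.5 CPM in naive and 96.0 ± 59.0 CPM in SCVS replicates (SD, n = 5 each), and Bcl6, a transcriptional repressor, at 16.9 ± 18.2 and 2.40 ± 3.33 CPM. Of 14 surface partners and genes of shedding or release, 13 were tested, 0 called, with 8 positive and 5 negative values and a median of 0.09. Adam10, a sheddase, was at 104 ± 58.8 and 162 ± 70.0 CPM, and Rab27a, a GTPase of granule release, at 5.49 ± 3.76 and 1.22 ± 2.53 CPM.

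Angiopoietin-like proteins resemble the ligands in sequence but do not bind Tie2. Of 7 genes, 4 were tested and 0 called by edgeR, with 2 positive and 2 negative values and a median of -0.32. Angptl2 had 496, 40, 84, 0 and 0 counts in Naive 1 to 5 and 0, 0, 0, 0 and 1 counts in SCVS 1 to 5, so naive replicates with counts stood above all SCVS replicates, and those without did not. Its mean was at least 46.1-fold lower in SCVS replicates against a floor of 3 counts in each, and at least 9.29-fold lower without Naive 1, the replicate that lacked Prox1 and Pdpn. With all replicates the edgeR adjusted p was 0.964 and the DESeq2 adjusted p was 0.0929, the 1 call by DESeq2 among the pathway lists. Angptl2 passed the filter on low counts only through Naive 1 to 3, in the group where it is high. Neither the bound nor the DESeq2 call can therefore serve as support for a difference. Angptl6 had 0, 31, 0, 0 and 0 counts in naive and 3, 105, 2, 0 and 231 counts in SCVS replicates.

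None of the 7 marker lists passed an adjusted p of 0.05 between the groups in an exact permutation test of the score. The lymphatic score was 4.79 ± 2.18 in naive and 6.13 ± 1.18 in SCVS replicates (SD, n = 5 each, exact permutation p = 0.278, adjusted 0.622), and the platelet score, with the smallest p, was 2.67 ± 2.34 and 4.93 ± 0.95 (exact permutation p = 0.0952, adjusted 0.611). Without Naive 5 the adjusted exact permutation p was at least 0.250 for all 7 lists, and the differences of the blood endothelial score (-0.62) and pan-endothelial score (-0.43) were then negative, against 0.68 and 0.34 with it. The leukocyte sums, a check on the CD45- gate, were 2.78 to 295 CPM in naive and 6.57 to 971 CPM in SCVS replicates, and Ptprc, the CD45 gene, was at no more than 0.0960 CPM in naive replicates and reached 40.5 CPM in SCVS 5. DESeq2 called 2 of the marker genes, Ptprc (adjusted p = 0.0801, and 0.971 by edgeR, with an edgeR log2 fold change of 7.46 ± 2.64) and Acta2 (adjusted p = 0.0600, and 0.964 by edgeR, with a log2 fold change of -4.04 ± 1.41). Ptprc passed the filter on low counts only through SCVS 1, 4 and 5 (1.92, 8.54 and 40.5 CPM), and SCVS 2 and 3 had none. Its call and fold change can therefore not serve as support for a difference.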

How the data were processed

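RNA was measured by sequencing in 10 replicates of sorted meningeal cells. The authors deposited raw counts per gene and replicate, with no normalization. Per the labels, cutadapt 1.9.1, HISAT2 2.0.1 and HTSeq 0.6.1 were used with GRCm38, whereas the methods name mm9. Only 58.8% of the gene identifiers were in GENCODE M1 (mm9), so coordinates are those of RefSeq GRCm38.p6 and only exon lengths and overlaps come from GENCODE M1. Use of strand in counting is not given in the sources used here.

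The condition named in the labels set the groups, and the totals per replicate are the depth given in the report. The sources do not tie replicates to cohorts, and within-cohort values were not computed. The genes tested were those above 5 counts in 3 or more replicates, and the quasi-likelihood test of edgeR was used (version 4.0.16, limma 3.58.1, R 4.3.3) on TMM-scaled libraries. P-values were adjusted by Benjamini-Hochberg over all tested genes, and an adjusted p under 0.1 was called. The standard error is the absolute log2 fold change divided by the square root of F. CPM and ratios were compared with two-sided exact permutation tests, and relations with 100000 permutations (Python 3.11.15, SciPy 1.17.1, NumPy 2.4.6, pandas 2.3.3, Matplotlib 3.10.9). The p-values measure the spread between pools. DESeq2 1.42.0, voom, other scalings, filters and a replicate block were alternatives. The fits were tested on simulated data. With a small spread between replicates every tool recovered the changed genes. With a single wide spread for every gene, near the common spread in the edgeR fit (a coefficient of variation of 1.59), edgeR's quasi-likelihood test recovered none. DESeq2 then called more unchanged than changed genes. An absent edgeR call therefore says little for genes of such spread. Angpt2, Tek, Tie1 and Ptprb spread less, with coefficients of variation of 32.4% to 54.0% in SCVS and 63.0% to 87.0% in naive replicates. This setting therefore does not describe them.

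The members, marker lists and pathway lists were chosen with earlier results of these data known. Named are all members, from each pathway list the tested gene with the smallest p in each direction, the 3 genes most correlated with each member that has more than 3 counts in at least 6 replicates, and defining markers of the cell types.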

Additional observations from a re-analysis of the deposited data

Results flagged for a closer look

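Of 34 groups of replicates examined for a lone extreme value by Dixon's test, 6 held one, where chance gives about 1 in 20 groups. The gene levels among them rest on few counts, and a lone count among zeros is always past the critical value. Angpt4 was highest in Naive 3 (0.286 CPM) and in SCVS 3 (0.243 CPM), the only replicate of its group with a count in each case, and Svep1 was highest among naive replicates in Naive 4 (0.516 CPM).

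The other values all belong to Naive 5, which was the lowest naive replicate in the blood endothelial score (2.41), the pan-endothelial score (6.03) and the fibroblast score (1.55), each a mean of log2(CPM + 1) over the list. Gene levels were examined in CPM, a linear scale that compresses low values. On the log2(CPM + 1) scale of the scores, tried after seeing the data, Naive 5 was also a lone lowest value for Angpt2 (0.29), Tek (2.70), Tie1 (2.70) and Ptprb (5.68), with a gap of 0.748 to 0.856 of the group's range against a critical value of 0.710.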

How the results depend on the processing

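No member passed the threshold under any alternative. The number of all genes past an adjusted p of 0.1, 0 by edgeR's quasi-likelihood test (460 at an unadjusted p under 0.05), was 114 by DESeq2, 3 by voom, 38 by the edgeR likelihood ratio test and 214 by DESeq2 without Naive 5, the last chosen after seeing the data, and 0 in all edgeR quasi-likelihood fits that left out 1 replicate. The list of angiopoietin-like genes had 1 call by DESeq2. Signs turned for Tek under voom (0.37), the replicate block (0.46) and the number of detected genes as covariate (0.022), for Angpt2 under voom (0.30) and the replicate block (0.22), for Tie1 with that covariate (-0.087), and for Ptprb by DESeq2 without Naive 5 (-0.24). Svep1, at 2.89, was 0.18 with that covariate, 1.27 with the replicate block and 1.55 under voom, and Angpt1, at -2.65, was -1.73 under voom. The log2 fold change of Tie1 was 0.75 and that of Ptprb 0.47 with the block. The CPM difference was negative for Angpt2 and Tek but 0.98 and 0.95 on the log2(CPM + 1) scale and 1.36 and 0.99 on the log2(CPM + 0.1) scale. By summed CPM, SCVS minus naive was -89.1 for blood and -30.6 for pan-endothelial markers, against positive score differences. The cause was not tested.

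The sources do not say whether replicates of the same number shared a cohort or batch. Deviations of same-numbered replicates correlated at -0.0089 to 0.133. Of the naive replicates, 4 of 5 correlated best with the SCVS replicate of their own number, a hint from the data and not the design. With the replicate block 0 genes were called.

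Leaving out 1 replicate gave log2 fold changes of -3.65 to -1.91 for Angpt1, -0.46 to 0.16 for Angpt2, -0.40 to 0.56 for Tek, -0.0056 to 0.64 for Tie1, -0.25 to 0.30 for Ptprb and 2.58 to 3.22 for Svep1, which entered 7 of 10 such fits. The CPM differences were -18.0 to -6.89 for Angpt1, -57.9 to 18.8 for Angpt2, -0.0572 to 0.0487 for Angpt4, -100.3 to 136 for Tek, 1.20 to 110 for Tie1, -121 to 159 for Ptprb and 0.268 to 1.12 for Svep1. The differences of the log2 ratios were -0.31 to 0.35 for Tie1 to Tek, -0.66 to 0.068 for Ptprb to Tek, -0.79 to 0.081 for Angpt2 to Tek and -0.01 to 2.31 for Angpt2 to Angpt1. Depth limits Angpt4, which had at most 4 counts. The 7 fits of Svep1 left out only replicates with at most 1 count of it, so their range does not test its sign.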
